A study of Mus musculus with 6 samples.

Results

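The genes described here encode the nuclear subunits of the mitochondrial oxidative phosphorylation system, cytochrome c, and assembly factors that share their naming, with Atpaf2 among them as the gene that lies inside the duplicated segment. They were taken by symbol: every gene measured by a probe set with exactly 1 symbol that starts with Ndufa, Ndufb, Ndufc, Ndufs, Ndufv, Uqcr, Cox4i, Cox5, Cox6, Cox7, Cox8 or Atp5, or that is Sdha, Sdhb, Sdhc, Sdhd, Cycs, Atpaf1 or Atpaf2. This gave 93 genes on 186 probe sets, of 18193 genes and 45037 probe sets in all, and where a gene had several probe sets it was read by the brightest, judged by the mean of the 6 arrays. They comprised 34 subunits of complex I, 4 of complex II, 8 of complex III, 18 of complex IV and 17 of complex V, or 81 subunits together. Cytochrome c (Cycs), the ATP synthase assembly factors Atpaf1 and Atpaf2, the supercomplex factor Cox7a2l and 8 complex I assembly factors (Ndufaf1 to Ndufaf8), which the symbol rule also takes in, made up the rest. Ndufa4 and its paralog Ndufa4l2 were counted with complex IV, where the Ndufa4 protein resides.

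RNA from the hippocampus of 6 mice was measured on 1 Affymetrix array per mouse. The test group was 3 Dp(11)17/+ mice, heterozygous for a duplication of a segment of chromosome 11 and made as a model of Potocki-Lupski syndrome. The control group was 3 +/+ mice without the duplication. All were labelled as males of 11 to 14 weeks on the C57BL/6-Tyr c-Brd background, and no further allele or agent is named for either group. Replicate numbers here only name the mice within a group and pair none of them. Each sample names an individual of its own, and litters and cohorts are not given.

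Complexes I to IV of the inner mitochondrial membrane pass electrons from NADH and succinate to oxygen, and complexes I, III and IV pump protons as they do so. Complex V, the ATP synthase, uses the resulting gradient to make ATP, which neurons draw on for ion pumping and synaptic transmission. Most subunits are encoded in the nucleus and a minority in mitochondrial DNA, and each complex needs dedicated assembly factors. Atpaf2 and Atpaf1 are chaperones of the F1 part of the ATP synthase: Atpaf2 binds the alpha subunit (Atp5a1) and Atpaf1 the beta subunit (Atp5b) before they join.

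The arrays had medians between 3.74 and 3.79 on the log2 scale, and 9 of 12 measured hippocampal markers had a mean log2 signal of 6 or more. Dp(11)17/+ replicate 1, labelled male, had a log2 signal of 9.13 for Xist, the RNA of the inactive X chromosome, against 3.06 to 3.69 in the other 5 mice. It had 2.48 for Eif2s3y and 2.47 for Kdm5d, both on the Y chromosome, where the others had at least 5.41 and 4.70. Dp(11)17/+ replicate 3 had a mean over 13 striatal markers 1.78 above the +/+ mean and over 16 markers of thalamus and habenula 2.22 above it. Its CA1 and dentate gyrus marker means were -1.90 and -1.44 from the +/+ mean. The corresponding means of Dp(11)17/+ replicate 1 were 1.04, 0.10, -0.58 and -0.81, and those of Dp(11)17/+ replicate 2 were -0.11, -0.13, 0.37 and 0.68. A mean log2 signal of 6 or more was reached by 7 of the 13 striatal and 6 of the 16 thalamus and habenula markers. It was reached by all 9 CA1 and 6 of the 11 dentate gyrus markers. Results are therefore given with and without replicates 1 and 3 where these mice carry weight. In whole tissue, fewer cells of a type and less RNA per cell cannot be told apart.

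The letters upstream of the genes show what part of the set has in common apart from its products. RefSeq windows of 300 bases (GRCm38.p6), from 250 before to 50 after the annotated start site, were held for 77 of the 93 genes, in 83 windows. Stretches of 275 bases, ending 25 after the start, are shown for the duplicated gene Atpaf2, for Ndufaf8 and Atp5h, which lie on the same chromosome outside the segment, and for Cox6a1, whose groups did not overlap. Capitals mark AAGATGGC, the core letters of a YY1 site, in Atpaf2 (chr11:60417010-60417284, minus strand) and Ndufaf8 (chr11:120098684-120098958, plus strand). They mark CCGGAAGT, letters bound by ETS factors such as GABP, as its reverse complement in Atp5h (chr11:115419895-115420169, minus strand), and the palindrome of NRF1, GCATGCGC with GC before it, in Cox6a1 (chr5:115348934-115349208, minus strand).
Atpaf2: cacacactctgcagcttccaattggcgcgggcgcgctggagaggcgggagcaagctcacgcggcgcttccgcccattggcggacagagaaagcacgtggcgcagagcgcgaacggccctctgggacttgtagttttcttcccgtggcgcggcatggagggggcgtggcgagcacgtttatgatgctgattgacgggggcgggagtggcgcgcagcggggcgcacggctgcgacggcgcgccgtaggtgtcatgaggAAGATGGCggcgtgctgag
Ndufaf8: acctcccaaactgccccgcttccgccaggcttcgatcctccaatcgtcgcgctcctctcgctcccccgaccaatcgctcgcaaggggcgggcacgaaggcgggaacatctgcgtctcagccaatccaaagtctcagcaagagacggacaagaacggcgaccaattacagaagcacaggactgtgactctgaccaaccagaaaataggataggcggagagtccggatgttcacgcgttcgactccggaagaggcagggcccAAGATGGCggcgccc
Atp5h: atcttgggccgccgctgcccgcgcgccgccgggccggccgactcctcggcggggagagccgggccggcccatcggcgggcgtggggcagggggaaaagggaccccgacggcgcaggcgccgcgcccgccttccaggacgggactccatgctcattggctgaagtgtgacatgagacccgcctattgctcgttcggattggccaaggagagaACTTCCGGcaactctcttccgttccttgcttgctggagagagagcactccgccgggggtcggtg
Cox6a1: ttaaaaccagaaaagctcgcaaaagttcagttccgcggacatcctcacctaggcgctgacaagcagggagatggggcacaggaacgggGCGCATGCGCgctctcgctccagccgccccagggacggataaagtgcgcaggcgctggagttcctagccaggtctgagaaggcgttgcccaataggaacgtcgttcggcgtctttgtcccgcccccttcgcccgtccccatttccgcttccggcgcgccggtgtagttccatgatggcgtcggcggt

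The YY1 letters begin at base 7 after the start of Atpaf2 and at base 11 after that of Ndufaf8. On both strands, AAGATGGC was found in 11 of the 83 windows, or 13.3%, against 2.75% of all 32851 windows and 3.05% of those of protein-coding genes. In 9 of the 11 it lay after the start site and in 10 it was on the sense strand, the other genes being Ndufa3, Ndufa9, Ndufb8, Ndufc1, Ndufs4, Ndufs7, Atp5j, Atp5j2 and Atp5pb. The longer form, with GGC after these letters, was in 5 windows, or 6.02%, against 0.633% of all and 0.889% of protein-coding windows. It is part of the same matches. The NRF1 palindrome was in 6 windows, or 7.23%, against 0.971% of all and 1.33% of protein-coding windows. Its shorter core GCATGCGC, which every palindrome contains, was in 12, or 14.5%, against 2.71% and 3.51%.

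For the remaining letters the shares lay closer to those of other genes. CCGGAAGT was in 5 windows (6.02%, against 3.89% of all and 5.15% of protein-coding windows) and AAGGTCA, letters of an oestrogen-related receptor site, in 8 (9.64%, against 4.72% and 4.08%). GGGCGG, the core letters of an SP1 site, was in 38 (45.8%, against 35.7% and 46.2%), CCAAT in 36 (43.4%, against 37.4% and 38.2%) and TATAAA in 9 (10.8%, against 13.6% and 12.6%). Neither of the 2 windows of Atpaf1 held the YY1, NRF1 or GABP letters. The genes of these factors gave log2 fold changes of -0.01 for Yy1, -0.06 for Nrf1 and -0.04 for Gabpa, and in each of them the genotypes overlapped. Nrf1 and Gabpa were dim, with mean log2 signals of 4.84 and 5.95. A match describes the letters only, and no binding was measured.

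The central question was whether the added copy of the segment goes with other levels of oxidative phosphorylation transcripts. Apart from Atpaf2, the members lay close to their wild-type levels: 88 of the other 92 had a log2 fold change between -0.2 and 0.2. By limma, 0 of the 93 passed an adjusted p of 0.05, the smallest adjusted p being 0.994, and 0 of all 45037 probe sets passed. At an unadjusted limma p under 0.05 stood 1 member, Atpaf2, where 3.17% of all genes did (1.15% in the higher direction, and 2.82% of all probe sets), and a plain equal-variance statistic gave 7 members there (7.53%, against 3.78% of all genes) and 0 after adjustment. The 95% confidence interval of the log2 fold change lay within 1.5-fold in either direction (0.58 on the log2 scale) for 88 members, including each of the 69 whose mean log2 signal was 9 or more. The 5 others were Atpaf2, Atpaf1, Cox6a2, Cox6b2 and Cox8b. Across all 18193 genes the interval lay within 1.5-fold for 15575, and across the 1201 genes with a mean of 9 or more for 1039.

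Of the 93 members, 25 had a higher mean in Dp(11)17/+ mice and 68 (73.1%) a lower one. Across all genes 41.7% were higher and 58.3% lower, and among the 1201 genes with a mean log2 signal of 9 or more, a class most members belong to, 61.7% were lower. The median log2 fold change was -0.04 over the members, -0.02 over all genes and -0.03 over the bright genes. The count of higher members depended on single mice: it was 43 without Dp(11)17/+ replicate 1 and 13 without Dp(11)17/+ replicate 3. The genotypes did not overlap in 12 members, 3 with all Dp(11)17/+ mice above (Atpaf2, Cox8a and Cox6a1) and 9 below (Ndufa6, Ndufb2, Ndufb3, Ndufaf2, Ndufaf3, Sdha, Sdhb, Sdhd and Atp5h). This was 12.9% of the members, where 8.29% of all genes (2.7% with the Dp(11)17/+ mice above and 5.59% below) and 9.49% of the bright genes did not overlap.

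With a mouse left out fewer values have to separate, and more genes do so by their number alone. The count of members was 16 without Dp(11)17/+ replicate 1, or 17.2%, where 16.2% of all genes did not overlap. It was 19 without Dp(11)17/+ replicate 2 (20.4%, against 24.9%) and 31 without Dp(11)17/+ replicate 3 (33.3%, against 15.6%). Without +/+ replicates 1, 2 and 3 it was 24 (25.8%, against 21.1%), 18 (19.4%, against 16.5%) and 17 (18.3%, against 15.5%). Members at an unadjusted limma p under 0.05 numbered 2 without Dp(11)17/+ replicate 1 (2.15%, against 2.64% of all genes) and 3 without +/+ replicate 1 (3.23%, against 4.93%).

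Markers of glia and vessels mostly had higher means in the Dp(11)17/+ mice. All 7 microglial markers did (median log2 fold change 0.16), each of them highest in Dp(11)17/+ replicate 1, and their mean log2 signal was 7.49, 7.17 and 7.11 in the Dp(11)17/+ mice and 7.05, 7.20 and 6.95 in the +/+ mice. All 7 oligodendrocyte markers did as well (median 0.23), with means of 9.97, 10.24 and 10.56 against 10.35, 9.80 and 9.84. Of the 7 astrocyte markers 6 did (median 0.16), with 9.27, 9.26 and 9.08 against 9.11, 9.13 and 9.07, and of the 5 endothelial markers 4 (median 0.25), with 6.20, 6.05 and 6.24 against 5.92, 5.93 and 5.95. The genotypes overlapped in these means except for the endothelial list. No marker of these lists had a mean log2 signal below 4 apart from 1 endothelial gene. Their part in the subunit values was not tested.

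**Figure D1:**
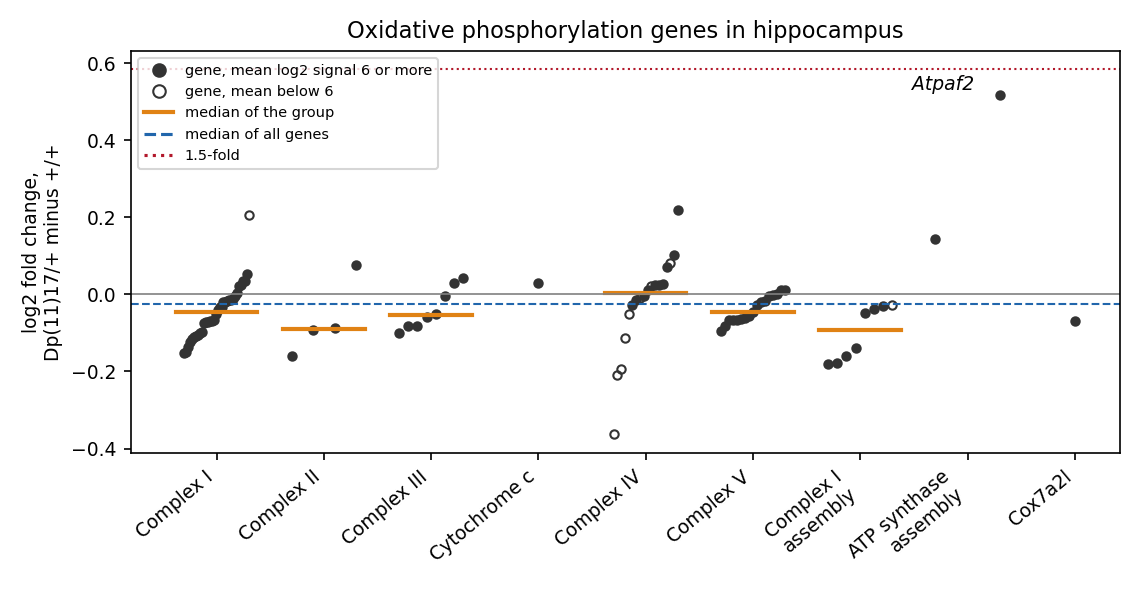
Log2 fold change, Dp(11)17/+ minus +/+, of each of the 93 members (points, open where the mean log2 signal was below 6), grouped by complex, with the median of each group of more than 2 genes (orange), that of all genes (dashed, -0.02) and 1.5-fold (dotted, 0.58). Atpaf2 stands at 0.52, while the medians of complexes I to V lie between -0.09 and 0.00.

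Atpaf2 was the member with the highest fold change. Its log2 signal was 6.62, 6.45 and 6.51 in Dp(11)17/+ replicates 1, 2 and 3 and 5.91, 6.03 and 6.08 in +/+ replicates 1, 2 and 3. Every Dp(11)17/+ mouse lay above every +/+ mouse, with a gap wider than the range within either group. The log2 fold change was 0.52 (SE 0.09, 95% confidence interval 0.31 to 0.73), or 1.43-fold, and the interval held the 0.58 that a copy ratio of 1.5 would give. Adjusted over all probe sets by limma it did not pass (adjusted p = 0.994, unadjusted 0.000602), and the exact two-sided permutation test over 20 labelings gave p = 0.1, the smallest possible here. The value was 0.47 without Dp(11)17/+ replicate 1, 0.52 without replicate 3, 0.44 with replicate 2 as the sole Dp(11)17/+ mouse, and 0.50 with a score of regional markers as a covariate. Among the 20 genes of the segment with a mean log2 signal of 6 or more, with a median of 0.48, 8 had a larger fold change than Atpaf2. Atpaf2 was represented by 1 probe set, whose mean log2 signal of 6.27 was close to the floor of 6 used here for dim probe sets.

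Atpaf1, the partner chaperone on chromosome 4, had log2 signals of 7.06, 7.12 and 7.87 in the Dp(11)17/+ mice and 7.33, 7.14 and 7.15 in the +/+ mice. Dp(11)17/+ replicate 3 was above the other 5 mice and replicates 1 and 2 were below every +/+ mouse. The log2 fold change was 0.14 (SE 0.21), turning to -0.12 without Dp(11)17/+ replicate 3 and to -0.11 with the regional covariate, and a second probe set gave 0.06. The difference of the log2 signals, Atpaf2 minus Atpaf1, was -0.45, -0.67 and -1.35 in the Dp(11)17/+ mice and -1.42, -1.10 and -1.07 in the +/+ mice. Replicates 1 and 2 thus had more Atpaf2 relative to Atpaf1 than any +/+ mouse, while replicate 3 lay within the +/+ range. The group difference was 0.37 (exact two-sided permutation p = 0.3 over 20 labelings), 0.19 without Dp(11)17/+ replicate 1 and 0.64 without replicate 3.

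The F1 subunits that these chaperones bind had no such separation. Atp5a1, the alpha subunit, had log2 signals of 10.93, 11.01 and 11.02 in the Dp(11)17/+ mice and 11.05, 11.09 and 11.01 in the +/+ mice, a log2 fold change of -0.06 (SE 0.08). Atp5b, the catalytic beta subunit, had 11.19, 11.25 and 11.43 against 11.34, 11.37 and 11.14, a log2 fold change of 0.01 (SE 0.10). In both genes the genotypes overlapped. The difference Atpaf2 minus Atp5a1 was -4.31, -4.57 and -4.50 in the Dp(11)17/+ mice and -5.14, -5.06 and -4.93 in the +/+ mice, a group difference of 0.58 in which every Dp(11)17/+ mouse was above every +/+ mouse.

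**Figure D2:**
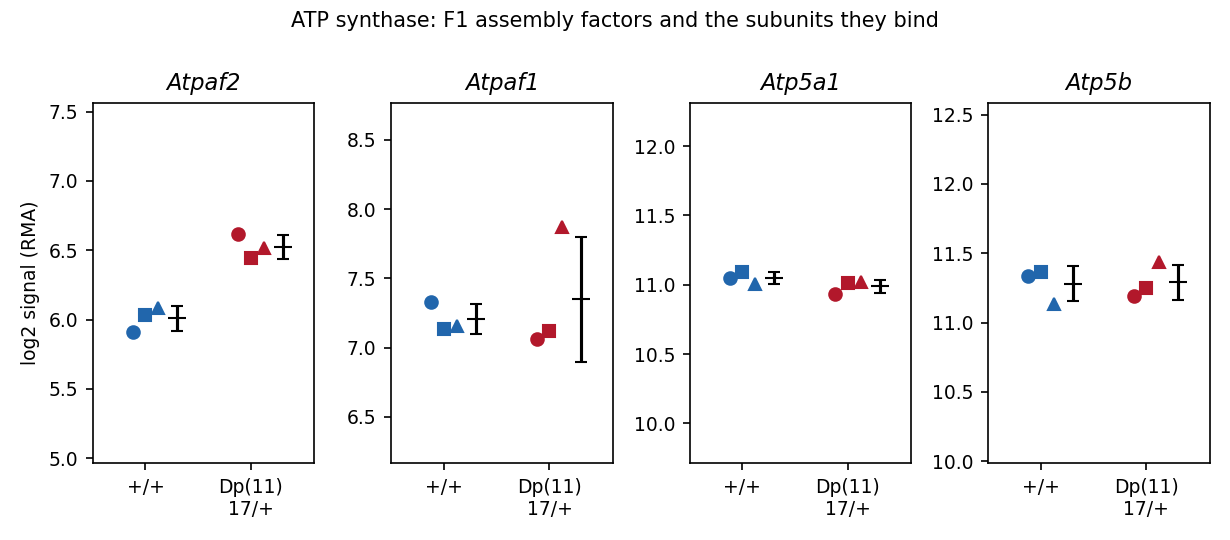
Log2 signal of Atpaf2, Atpaf1, Atp5a1 and Atp5b in each mouse (circle, square and triangle for replicates 1, 2 and 3), with mean and SD (n = 3) beside each group; every panel spans the same number of log2 units. The Dp(11)17/+ mice lie at 6.45 to 6.62 for Atpaf2, above the +/+ mice at 5.91 to 6.08, and for Atpaf1 replicate 3 stands alone at 7.87.

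Among the other subunits of complex V, 3 of all 17 had a higher mean and 14 a lower one. The median log2 fold change was -0.05, and each of the 17 confidence intervals lay within 1.5-fold in either direction. The 5 with the smallest p were Atp5o, the stalk subunit OSCP, at -0.10 (SE 0.08), Atp5mpl at -0.08 (SE 0.10), Atp5l at -0.07 (SE 0.07), Atp5c1, the gamma subunit of the rotor, at -0.07 (SE 0.08), and Atp5h, a subunit of the peripheral stalk, at -0.06 (SE 0.07). Atp5o had log2 signals of 9.999, 10.01 and 10.10 in the Dp(11)17/+ mice and 10.11, 10.10 and 10.19 in the +/+ mice, with ranges that overlapped slightly. Atp5h had 10.82, 10.92 and 10.91 against 10.94, 10.96 and 10.93, so that its groups did not overlap, though by less than the spread within the Dp(11)17/+ mice. A second bright probe set of Atp5h gave a log2 fold change of -0.03, and there the genotypes overlapped. The 3 genes for the membrane ring subunit c, Atp5g1, Atp5g2 and Atp5g3, had log2 fold changes of -0.06, -0.05 and -0.02. Without Dp(11)17/+ replicate 1 the median of complex V was -0.03, and without replicate 3 it was -0.07.

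Complex I, which oxidises NADH, had 7 of 34 members higher and 27 lower, with a median log2 fold change of -0.05. The median was -0.01 without Dp(11)17/+ replicate 1 and -0.08 without replicate 3. Among the conserved core subunits encoded in the nucleus, the log2 fold changes were -0.10 (Ndufs1), -0.07 (Ndufs3), -0.01 (Ndufs7), -0.05 (Ndufs8), -0.07 (Ndufv1) and -0.11 (Ndufv2). All 6 measured Ndufs genes and all 3 Ndufv genes had lower means. In 5 of the 6 Ndufs genes Dp(11)17/+ replicate 1 was the lowest of the 6 mice, as it was in 3018 of all 18193 genes. The genotypes overlapped in each of the Ndufs genes.

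The accessory subunits of complex I, which surround the core, held the 5 members of the complex with the smallest p. Ndufa6 had log2 signals of 9.57, 9.56 and 9.62 in the Dp(11)17/+ mice and 9.73, 9.77 and 9.70 in the +/+ mice, without overlap. Its log2 fold change was -0.15 (SE 0.07, limma adjusted p = 0.994), between -0.13 and -0.17 with any 1 mouse left out. Ndufs5 gave -0.15 (SE 0.09), with 9.66, 9.75 and 9.82 against 9.79, 9.90 and 9.997, where the groups overlapped. Ndufab1, which is also the mitochondrial acyl carrier protein, gave -0.14 (SE 0.10) at its brightest probe set and 0.10 at the next, so that its probe sets had opposite signs. Ndufb1 gave -0.12 (SE 0.10). Ndufb4 gave 0.21 (SE 0.11) on a probe set with a mean log2 signal of 3.22, which is dim. Ndufb2 and Ndufb3, whose groups did not overlap, gave -0.11 (SE 0.09) and -0.07 (SE 0.07).

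The 8 complex I assembly factors named Ndufaf all had lower means, from -0.18 for Ndufaf5 to -0.03 for Ndufaf6, with a median of -0.09. Across all genes 58.3% were lower. Of 9 measured complex I assembly factors with other names, 5 had a higher and 4 a lower mean. Their median was 0.01, and the genotypes overlapped in each. Ndufaf2 had log2 signals of 6.35, 6.21 and 6.37 in the Dp(11)17/+ mice and 6.43, 6.56 and 6.48 in the +/+ mice. Ndufaf3 had 8.35, 8.36 and 8.20 against 8.43, 8.51 and 8.39. In both genes every Dp(11)17/+ mouse was below every +/+ mouse, with log2 fold changes of -0.18 (SE 0.09) and -0.14 (SE 0.09). This was so for 5.59% of all genes. In 6 of the 8 Ndufaf genes the highest of the 6 mice was +/+ replicate 2, which was the highest in 3056 of all 18193 genes. The 6 Ndufaf genes other than Ndufaf2 and Ndufaf3 overlapped between genotypes.

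Complex II, the succinate dehydrogenase that also serves the citric acid cycle, had 3 of its 4 subunits below the wild-type mice without overlap. This was so for 5.59% of all genes and 6.49% of the genes with a mean log2 signal of 9 or more. The unadjusted limma p of the 3 ranged from 0.11 for Sdhd to 0.28 for Sdha. Sdha, the flavoprotein with the active site, had log2 signals of 9.87, 9.95 and 9.95 in the Dp(11)17/+ mice and 9.997, 9.99 and 10.06 in the +/+ mice. Sdhb, the iron-sulphur subunit, had 10.11, 10.18 and 10.14 against 10.21, 10.25 and 10.25. Their log2 fold changes were -0.09 (SE 0.08) and -0.09 (SE 0.07). Sdhd, a membrane anchor, had 8.66, 8.89 and 8.83 against 8.97, 8.94 and 8.96, which gives a log2 fold change of -0.16 (SE 0.09). A dim second probe set of Sdhd, with a mean of 4.85, gave -0.26, and the brighter one ranged from -0.09 without Dp(11)17/+ replicate 1 to -0.21 without replicate 2. Sdhc, the other membrane anchor, went the other way at 0.08 (SE 0.10), with 8.04, 8.14 and 8.24 against 8.05, 8.20 and 7.93. None passed limma after adjustment, and the median of -0.09 over these 4 genes became -0.05 when all probe sets of a gene were averaged.

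Complex III, which passes electrons from ubiquinol to cytochrome c, had 2 of 8 members higher and 6 lower, a median log2 fold change of -0.05 and no member whose genotypes separated. The median was -0.01 without Dp(11)17/+ replicate 1 and -0.07 without replicate 3. Uqcrc1 and Uqcrc2, the large core proteins, gave -0.10 (SE 0.10) and -0.06 (SE 0.08). Uqcrfs1, the Rieske iron-sulphur protein, gave -0.08 (SE 0.10), with Dp(11)17/+ log2 signals of 9.32, 9.61 and 9.51 and +/+ log2 signals of 9.62, 9.54 and 9.53. Only Dp(11)17/+ replicate 1 stood clearly apart there, and without it the log2 fold change was -0.00. The small subunits Uqcr10 and Uqcrb gave -0.08 (SE 0.09) and -0.05 (SE 0.08). Cycs, the soluble carrier between complexes III and IV, had 10.19, 10.19 and 10.39 against 10.10, 10.27 and 10.31, a log2 fold change of 0.03 (SE 0.10) that became -0.04 without Dp(11)17/+ replicate 3. Other bright probe sets of Cycs, with means of 9.61 and 9.51, gave -0.02 and -0.01, and a dim one with a mean of 4.20 gave 0.08.

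Complex IV, the cytochrome c oxidase, had 9 of 18 members higher and 9 lower and a median log2 fold change of 0.00. Of its 10 members with a mean log2 signal of 6 or more, 7 were higher and 3 lower, with a median of 0.02. No test of a difference between complexes was made. The median was 0.04 without Dp(11)17/+ replicate 1 and -0.07 without replicate 3. Several subunits exist as tissue isoforms. Cox4i1, Cox6a1, Cox6b1, Cox7a2 and Cox8a had mean log2 signals of 6 or more, whereas Cox4i2, Cox6b2, Cox7a1, Cox7b2, Cox8b and Cox8c, forms known from lung, testis, heart or muscle, did not. Cox6a2, the heart and muscle form of subunit 6a, reached 6.51. Cox7c was read by probe sets with a mean of at most 4.55, so that its level could not be judged here.

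Both complex IV genes that separated by genotype were bright. Cox8a had log2 signals of 11.40, 11.44 and 11.44 in the Dp(11)17/+ mice and 11.38, 11.27 and 11.33 in the +/+ mice, a log2 fold change of 0.10 (SE 0.08), and a second bright probe set gave 0.13. Cox6a1 had 12.57, 12.61 and 12.64 against 12.55, 12.54 and 12.52, which gives a log2 fold change of 0.07 (SE 0.07), with 0.13 at the second probe set. The differences amount to 1.07-fold and 1.05-fold, and neither passed limma after adjustment. The other 4 of the 5 complex IV genes with the smallest p had means below 6. They were Cox8b at -0.36 (SE 0.26), which rests on +/+ replicate 1 and was -0.05 without it, Cox6b2 at -0.19 (SE 0.17), which was -0.01 without Dp(11)17/+ replicate 2, and Cox8c at -0.11 (SE 0.11), which was 0.01 without +/+ replicate 3, and Ndufa4l2, a hypoxia-induced gene in other tissues, at -0.21 (SE 0.11).

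Of the members, Cox6a2 had the widest spread between mice of one genotype. Its log2 signal was 6.45, 5.70 and 7.71 in Dp(11)17/+ replicates 1, 2 and 3 and 6.42, 6.40 and 6.39 in the +/+ mice. The Dp(11)17/+ mice lay on both sides of the +/+ mice, which were nearly equal, and a dimmer probe set had the same order, with 4.001, 3.51 and 4.64 against 3.93, 3.80 and 3.88. The log2 fold change of 0.22 (SE 0.44) is therefore within the spread between mice. Replicate 3, the highest, is the mouse with high means over the striatal and the thalamus and habenula markers. Replicate 2, the lowest, had the lowest regional score of the 6 mice, -2.64. Replicate 1 had a score of -0.73, above the +/+ mice at -2.09, -1.69 and -2.19. Its Cox6a2 signal of 6.45 was nevertheless close to those of the +/+ mice. Over 8 interneuron markers the mean log2 signal was 8.37, 7.97 and 8.51 in the Dp(11)17/+ mice and 8.08, 8.39 and 8.12 in the +/+ mice, 7 of the 8 having a mean of 6 or more. The part of regional makeup and of interneurons in the Cox6a2 values was not tested.

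**Figure D3:**
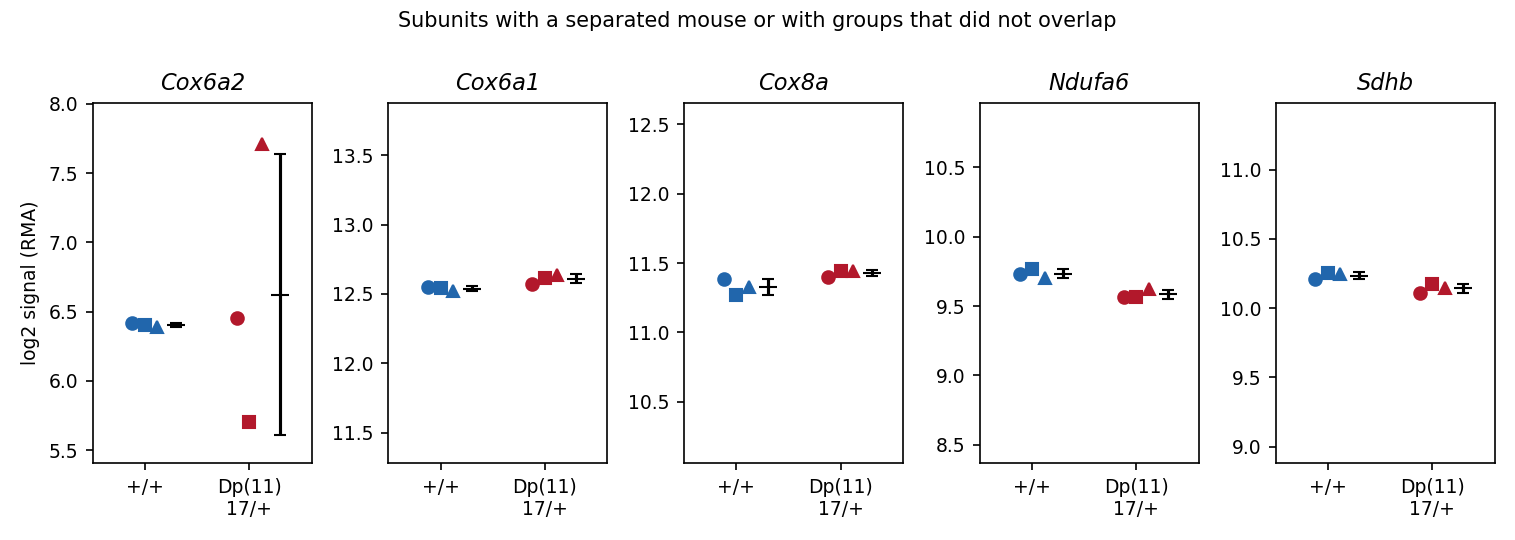
Log2 signal of Cox6a2, Cox6a1, Cox8a, Ndufa6 and Sdhb in each mouse (circle, square and triangle for replicates 1, 2 and 3), with mean and SD (n = 3); every panel spans the same number of log2 units. Cox6a2 ranges from 5.70 to 7.71 in the Dp(11)17/+ mice, while the separations of the other 4 genes, at 0.07 to 0.15 on the log2 scale, are small on the same span.

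The subunits also varied between the Dp(11)17/+ mice. The mean deviation of the 81 subunits from the +/+ mean was -0.10, -0.05 and 0.04 in Dp(11)17/+ replicates 1, 2 and 3 and 0.00, -0.00 and -0.00 in the +/+ mice. Over the 1201 bright genes the same deviations were -0.02, -0.02 and -0.03, so that the order among the Dp(11)17/+ mice was not that of bright genes at large. Dp(11)17/+ replicate 1 was the lowest of the 6 mice in 45 of the 93 members, and replicate 3 the highest in 33. Among the 1201 bright genes replicate 1 was the lowest in 241 and replicate 3 the highest in 312. Replicate 3 was above replicate 1 in 71 of the 81 subunits, or 87.7%, against 52.8% of the bright genes and 49.7% of all genes. This pair of mice was singled out after the values were seen, and the subunits of 1 mouse share its RNA, so the share carries no test.

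Replicate 3 was above replicate 1 in each complex, by different amounts. In complex I the mean deviation of the 33 members with a mean log2 signal of 6 or more was -0.13, -0.04 and 0.02, and in the 6 Ndufs genes it was -0.20, -0.03 and 0.03. In complex V it was -0.08, -0.05 and 0.01, and in complex III -0.08, -0.04 and 0.00. Complex IV gave -0.04, -0.08 and 0.25 over its 10 members at or above 6, and -0.05, -0.01 and 0.13 over the 9 of them other than Cox6a2. The 3' to 5' difference of actin probe sets, a measure of RNA quality, was 1.69, 1.47 and 1.74 in the Dp(11)17/+ mice and 1.63, 1.62 and 1.45 in the +/+ mice, and like the regional markers it moved between the mice. The part of either in the order of the mice was not tested.

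**Figure D4:**
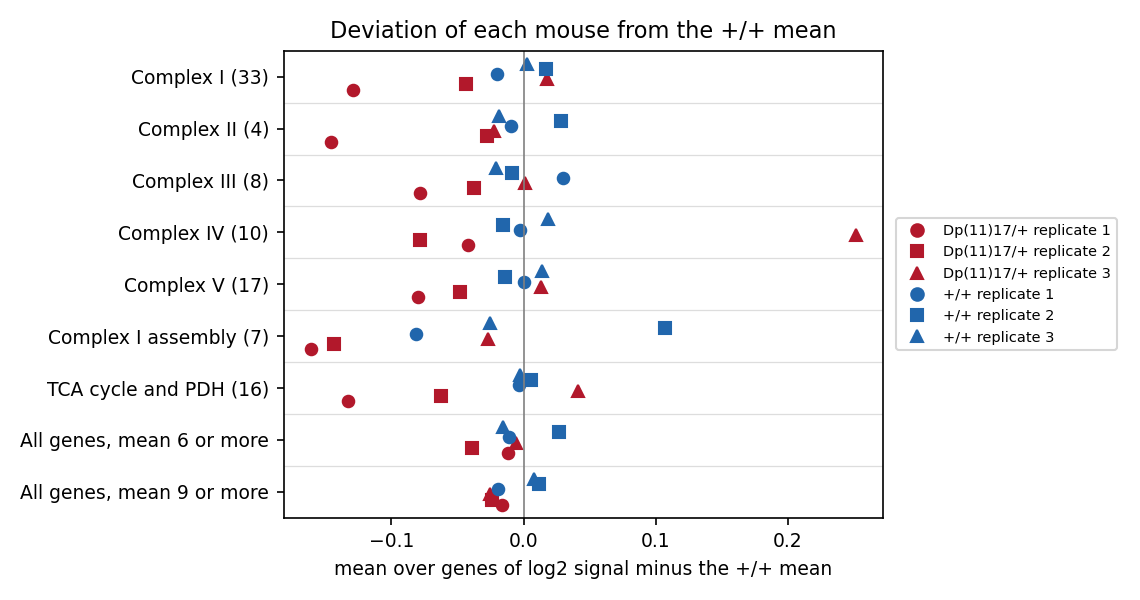
Mean over genes of the log2 signal minus the +/+ mean, for each mouse, by complex (members with a mean log2 signal of 6 or more, their number in brackets), for the citric acid cycle with pyruvate dehydrogenase, and for all genes at or above 6 and 9. Dp(11)17/+ replicate 1 lies between -0.04 and -0.15 for the 5 complexes, and replicate 3 lies above replicate 1 in each of them, while all genes stay between -0.04 and 0.03.

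Besides Atpaf2, 5 members lie on chromosome 11, all outside the duplicated segment: Atp5g1, Atp5h, Uqcr10, Uqcrq and Ndufaf8. Each had a lower mean, with log2 fold changes of -0.06, -0.06, -0.08, -0.01 and -0.04. Those of Uqcrq and Ndufaf8 changed sign with 1 mouse left out (up to 0.03 for each). Only Atp5h separated by genotype, at its brightest probe set but not at a second bright one. The 93 members are spread over 19 chromosomes.

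The genes that build or feed the complexes were compared as lists of their own. Of 43 measured assembly factors other than the members, 11 had a higher and 32 a lower mean. Their median was -0.05, and 0 passed limma after adjustment. At an unadjusted p under 0.05 and lower stood 2 of them, where 2.01% of all genes did, and 7 were below every +/+ mouse, where 5.59% of all genes were. Sco2, a copper chaperone of complex IV, had log2 signals of 6.22, 6.28 and 6.14 in the Dp(11)17/+ mice and 6.47, 6.51 and 6.63 in the +/+ mice. Its log2 fold change was -0.33 (SE 0.09, limma adjusted p = 0.994), between -0.28 and -0.36 with any 1 mouse left out. Uqcc1, a factor for cytochrome b of complex III, had 6.62, 6.69 and 6.68 against 6.85, 6.89 and 6.90, a log2 fold change of -0.22 (SE 0.07). Both genes were below in all 3 Dp(11)17/+ mice, and averaging the probe sets of Uqcc1 gave -0.11.

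Of 16 measured genes of the citric acid cycle and pyruvate dehydrogenase, 3 had a higher and 13 a lower mean, with a median of -0.07 and 0 past limma after adjustment. Ogdh, of the 2-oxoglutarate dehydrogenase, had log2 signals of 8.59, 8.48 and 8.81 against 8.32, 8.33 and 8.43 and was the 1 gene of the list with an unadjusted p under 0.05, where 3.17% of all genes stood. Its log2 fold change was 0.27 (SE 0.10), 0.18 without Dp(11)17/+ replicate 3 and 0.16 with the regional covariate. Dlat, the acetyltransferase of pyruvate dehydrogenase, gave -0.21 (SE 0.10), and -0.13 without Dp(11)17/+ replicate 1. The mean deviations of this list from the +/+ mean were -0.13, -0.06 and 0.04 in Dp(11)17/+ replicates 1, 2 and 3, in the order seen for the subunits. Those of the 43 assembly factors were -0.08, -0.09 and -0.02, with replicate 2 the lowest.

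Of the 13 protein genes of mitochondrial DNA, 1 was measured, ND5, with log2 signals of 12.32, 12.10 and 12.30 against 12.10, 12.21 and 12.28 and a log2 fold change of 0.04 (SE 0.10). Of 15 listed regulators of mitochondrial genes 8 had a higher and 7 a lower mean, with a median of 0.00. Pprc1, a coactivator, gave -0.12 (SE 0.09) and Mtf1, a metal-responsive factor that the list holds, 0.08 (SE 0.08).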

How the data were processed

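Hippocampus RNA of 3 Dp(11)17/+ and 3 +/+ mice was measured on 1-colour arrays, and mice were grouped by the genotype in their sample records. The records give hippocampus and an individual mouse, although the extraction protocol in the labels lists whole brain and other organs and the labelling protocol mentions pooled RNA. The deposited log2 values, 1 per probe set, were made by the authors with RMA, per the submitters' processing notes, of a version the sources used here do not give. They were used as deposited. RMA brings the arrays to a common distribution, so a change shared by all genes would not be seen.

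After 64 control probe sets were left out, 45037 were tested with limma 3.58.1 in R 4.3.3 (lmFit and eBayes, two-sided, Benjamini-Hochberg over all, threshold 0.05). The step was run on simulated data, where 43 of 100 simulated 2-fold changes and 14 of 100 simulated 1.5-fold changes passed the adjusted threshold. Most changes of 1.5-fold would thus be missed, and a gene that did not pass is not shown to be unchanged. Symbols came from the platform annotation, updated through Entrez identifiers (34741 of 34945 probe sets with 1 symbol matched). Of 99 protein-coding genes that fit the symbol rule, 6 are not analysed here. The number of arrays sets the precision, since they hold no counts. A mean log2 value of 6 served as a floor for dim probe sets.

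The members, gene lists, marker lists and rules were chosen with earlier results of these data known. The rule named Atpaf2, Atpaf1, Cycs, the 5 members of each complex with the smallest p, members on chromosome 11, isoforms and the 2 smallest p of each further list. The assignment to complexes, the 9 motifs, the promoters shown, the class of genes at 9 or more, and members outside that rule were chosen after values were seen. Alternatives were 3 other scalings, a regional covariate, 2 other variance models, a plain statistic, a filter on dim probe sets, averaged probe sets, other symbols, each mouse left out, and Dp(11)17/+ replicate 2 alone.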

Additional observations from a re-analysis of the deposited data

How the results depend on the processing

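Atpaf2 kept its direction under every alternative run, at 0.44 to 0.56 on the log2 scale, and no member passed limma after adjustment in any of them. Members at an unadjusted p under 0.05, with the share of all genes under the same setting, numbered 2 with quantile normalization again (3.39%), 3 with the regional covariate (3.24%), 7 with the plain equal-variance statistic (3.78%), 2 with averaged probe sets (2.80%), and 1 to 3 with each mouse left out (2.15% to 8.15%). Members without overlap numbered 7 with cyclic loess (8.23%) and 16 to 31 with each mouse left out (15.5% to 24.9%). Members with a higher mean numbered 39 with cyclic loess, which moved the median of all genes to -0.01, 14 with the regional covariate, and 13 to 43 with each mouse left out. The median of complex II was -0.047 with averaged probe sets and -0.060 with Dp(11)17/+ replicate 2 alone. That of complex IV ranged from -0.075 to 0.044 with each mouse left out, and its sign turned in 6 values that stayed within the spread between mice, among them -0.013 with quantile normalization again, -0.0042 with array medians, -0.057 with the regional covariate and -0.042 with Dp(11)17/+ replicate 2 alone. Atpaf2 minus Atpaf1 ranged from 0.19 to 0.64.

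Signs turned for single genes, none of them past the adjusted threshold. With cyclic loess Uqcrq was 0.018. With the regional covariate Atpaf1 was -0.11, Cycs -0.038 and ND5 -0.017. With averaged probe sets Atp5g1 was 0.019, Cox8c 0.033, Ndufab1 0.051, Uqcrq 0.035 and Mtf1 -0.0084. With Dp(11)17/+ replicate 2 alone Atpaf1 was -0.089, Cycs -0.035, Uqcrfs1 0.046 and ND5 -0.099. With each mouse left out the ranges were -0.082 to 0.033 for Ndufaf8, -0.037 to 0.030 for Uqcrq, -0.12 to 0.29 for Atpaf1, -0.037 to 0.073 for Cycs, -0.0040 to 0.12 for ND5 and -0.17 to 0.0053 for Cox8c. The cause was not tested. The remaining 132 recomputed summary values stayed within 1.5 times for counts, within the spread between mice and with the same sign for medians, and in direction for Atpaf2 and for Atpaf2 minus Atpaf1. The remaining 548 recomputed gene values kept their direction and their side of the threshold. No paired analysis was possible because the replicate numbers were given in accession order and pair no mice.

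Of 93 further probe sets of the members, 32 had the opposite sign to the brightest, 16 of them among the 59 with a mean of 6 or more, and in none of the 32 was either p under 0.05. Signal limits the 10 members with a mean below 6, 8 of them in complex IV.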
